A study of Homo sapiens with 4 samples.

Results

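The cholesterol and fatty acid synthesis genes of T24 were followed here across libraries with and without IGF2BP3. They are 34 of the 58302 genes listed, chosen by symbol: 4 SREBP factors, 18 genes of the sterol arm and 12 genes of the fatty acid arm. The choice used no threshold on expression, but the choosing text already stated that FASN was lower in both knockouts, so the direction of FASN is a description here and not independent evidence. T24 is a human bladder carcinoma line, long established in culture. PolyA RNA was sequenced from 2 libraries of T24 labelled control and from 2 libraries of a stable T24 line in which IGF2BP3, the gene of an RNA-binding protein that binds messenger RNAs, had been knocked out with CRISPR/Cas9. The question put by the design is what loss of IGF2BP3 does to the expression of genes in this line. How many clones were used, what the control cells carried and whether the cultures were separate is not given in the sources used here. The p-values therefore rest only on the spread between these libraries, which may be technical. In limma that spread is taken over genes at a similar level.

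Cholesterol is built from acetyl-CoA through mevalonate, farnesyl diphosphate, squalene and lanosterol, and fatty acids are built from acetyl-CoA and malonyl-CoA by fatty acid synthase before they are lengthened and desaturated. Both routes are governed by the SREBP transcription factors, which are held in the endoplasmic reticulum by INSIG proteins when sterols are plentiful and carried to the Golgi by SCAP for cleavage when sterols are scarce. SREBP-2, from SREBF2, acts mainly on sterol genes and SREBP-1, from SREBF1, mainly on fatty acid genes, commonly together with the CCAAT-binding factor NF-Y. Rapidly dividing tumour cells commonly run both routes for membrane supply.

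Promoter sequences are shown so that the motifs of these factors can be read beside the values. FDPS, EBP, ACLY and SCAP are some of the members whose groups did not overlap. SREBF2 is shown as the only one with a match to the sterol regulatory element among the 30 members searched. They come from RefSeq (GRCh38.p14) and run over the 250 bases before the start of transcription, 5′ to 3′ on the strand of the gene. Capitals mark matches on either strand to CCAAT (read from the other strand as ATTGG), to the E-box CACGTG or to the sterol regulatory element TCACNCCAC, and no matches overlap here.
FDPS, chr1:155308616-155308865, plus strand: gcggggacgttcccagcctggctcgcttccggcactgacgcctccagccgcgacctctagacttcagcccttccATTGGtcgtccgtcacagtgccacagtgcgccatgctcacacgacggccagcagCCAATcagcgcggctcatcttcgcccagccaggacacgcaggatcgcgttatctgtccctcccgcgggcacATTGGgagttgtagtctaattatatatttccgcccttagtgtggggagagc
EBP, chrX:48521558-48521807, plus strand: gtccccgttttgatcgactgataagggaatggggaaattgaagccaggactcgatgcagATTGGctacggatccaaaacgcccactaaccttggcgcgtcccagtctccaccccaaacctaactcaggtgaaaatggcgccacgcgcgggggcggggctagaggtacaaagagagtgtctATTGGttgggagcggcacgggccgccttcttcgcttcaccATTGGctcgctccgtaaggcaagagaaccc
ACLY, chr17:41919023-41919272, minus strand: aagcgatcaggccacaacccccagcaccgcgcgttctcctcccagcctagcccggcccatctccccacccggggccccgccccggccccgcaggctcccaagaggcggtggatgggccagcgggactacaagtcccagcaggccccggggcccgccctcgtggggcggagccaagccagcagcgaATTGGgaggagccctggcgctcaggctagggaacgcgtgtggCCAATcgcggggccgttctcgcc
SCAP, chr3:47475942-47476191, minus strand: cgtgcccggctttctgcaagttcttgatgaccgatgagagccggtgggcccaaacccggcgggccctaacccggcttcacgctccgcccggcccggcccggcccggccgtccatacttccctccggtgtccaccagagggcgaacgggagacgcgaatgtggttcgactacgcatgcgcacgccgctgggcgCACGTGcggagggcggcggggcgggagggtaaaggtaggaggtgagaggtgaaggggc
SREBF2, chr22:41832855-41833104, plus strand: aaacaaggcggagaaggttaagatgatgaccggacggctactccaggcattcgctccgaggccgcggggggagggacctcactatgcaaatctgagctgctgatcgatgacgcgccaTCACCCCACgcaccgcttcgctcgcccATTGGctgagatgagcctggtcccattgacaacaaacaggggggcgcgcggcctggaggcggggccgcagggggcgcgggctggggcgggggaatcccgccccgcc
The stretches of FDPS and EBP hold 3 CCAAT matches each and that of ACLY, from 1 of its 2 entries, holds 2. SCAP has no CCAAT match and 1 E-box, and SREBF2 has 1 sterol regulatory element and 1 CCAAT match.

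RefSeq entries of 300 bases (250 before to 50 after the start) were used for 30 of the 34 members, 42 entries in all. There was no entry for FASN or ACAT2, and SQLE and FDFT1 were not searched. CCAAT was present in 27 of the 42 (64.3%), against 34.6% of the 35116 entries of all genes. By gene, 13 of 15 sterol arm genes, 8 of 11 fatty acid arm genes and 2 of 4 SREBP factors had a match. No share by gene was computed over all genes. Entries of the same gene can overlap, as those of ACLY do, so a site can be counted more than once by entry. The E-box was present in 6 of the 42 (14.3%) against 7.26% of all entries, and the sterol regulatory element in 1 (2.38%), that of SREBF2, against 1.13%. These are matches of letters and not measured binding sites.

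The libraries held 2162179 and 1870884 gene-assigned reads (controls) and 811823 and 1240207 (knockouts), with 7827 to 11433 genes above 0. IGF2BP3 itself had an FPKM (fragments per kilobase of transcript, scaled to library depth) of 2.94 and 21.5 in control libraries, was listed at 0 in knockout 1 and stood at 0.190 in knockout 2, from 27, 171, 0 and 1 reads (log2 fold change −3.89 ± 2.83, adjusted p = 0.955 in limma). RNA can persist from an edited gene, so this level checks the label only in part.

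All 34 members had a mean FPKM of at least 1 and were tested, with 11463 genes in all, by limma on log2(FPKM + 0.5). None of the 34 passed an adjusted p of 0.05, and 2, FASN and FDPS, had an unadjusted p under 0.05. In limma without a trend of spread on level, 0 members had an unadjusted p under 0.05. By limma-voom on recovered reads 1 passed, FASN, as described with its values. Over all genes tested, 0.0872% passed the adjusted threshold and 3.91% the unadjusted one. The adjusted p of the members lay between 0.803 and 0.998, and the standard errors (SE) below follow the spread of genes at a similar level. In limma they do not follow the replicate gap of the gene itself. FASN has an SE of 0.54 with knockouts 1.84 apart on the log2 scale, and FADS1 has 1.14 with gaps of 0.23 and 0.22. With 2 libraries against 2, an exact permutation test of a single gene cannot go below 0.333 (two-sided). In bulk RNA, fewer cells of a type and less RNA per cell cannot be told apart.

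The arms leaned apart, without a test of either. In the sterol arm 12 of 18 members were higher in the knockout by the fitted fold change (66.7%) and the median log2 fold change was 0.59. The fatty acid arm had 4 of 12 members higher (33.3%) and a median of −0.55. Over all genes tested 48.2% were higher and the median was −0.08, with quartiles of −1.49 and 1.26 for single genes. Neither median was steady: that of the sterol arm was −0.32 without control 1, 0.10 without knockout 1 and 0.72 without knockout 2, and that of the fatty acid arm was 0.11 without knockout 1 and −1.29 without knockout 2. The median of all genes tested moved with the library too, to −0.35 or 0.34 when control 1 or control 2 was left out, and to 0.16 or −0.56 when knockout 1 or knockout 2 was. The sterol arm without control 1 and both arms without knockout 1 thus stood close to the median of all genes in the same fit.

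**Figure D1:**
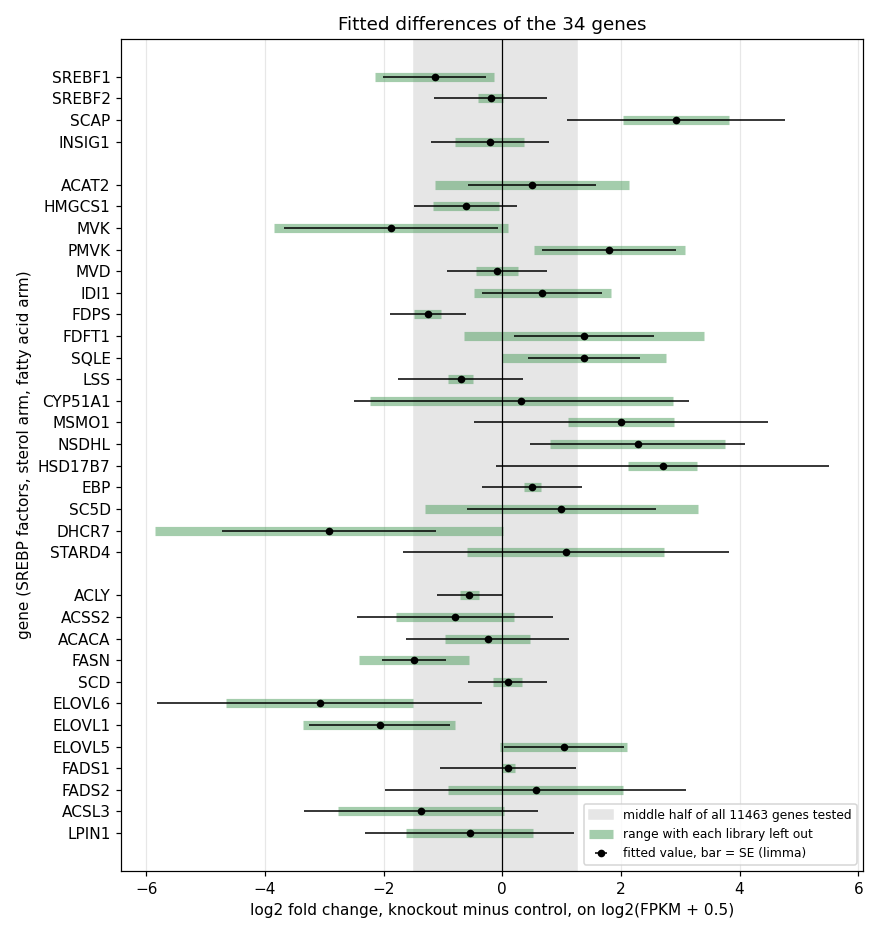
Fitted log2 fold change (x axis, knockout minus control, on the log2(FPKM + 0.5) scale) of each of the 34 members (y axis, by arm), as black points with the SE as a thin bar; the thick green bar is the range with each library left out and the grey band holds the middle quartiles of all genes tested. Sterol arm members run from −2.92 to 2.70 and fatty acid arm members from −3.08 to 1.03, with members on both sides of 0 in both arms.

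Both knockout values lay below both control values in 6 of the 34 members (17.6%), against 14.4% of all genes tested. Both lay above in 4 (11.8%), against 12.1% of all genes, and the groups of the other 24 overlapped. The 6 lower members were FDPS and LSS of the sterol arm and FASN, ACLY, ELOVL1 and ELOVL6 of the fatty acid arm. The 4 higher members were SCAP and, in the sterol arm, MSMO1, HSD17B7 and EBP. By arm, the lower members were 4 of 12 in the fatty acid arm (33.3%) and 2 of 18 in the sterol arm (11.1%). The 4 and the 6 include FASN, stated as lower in both knockouts when the members were chosen. Those counts were therefore in part fixed in advance. Taken over all members, the shares were near the background in both directions.

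**Figure D2:**
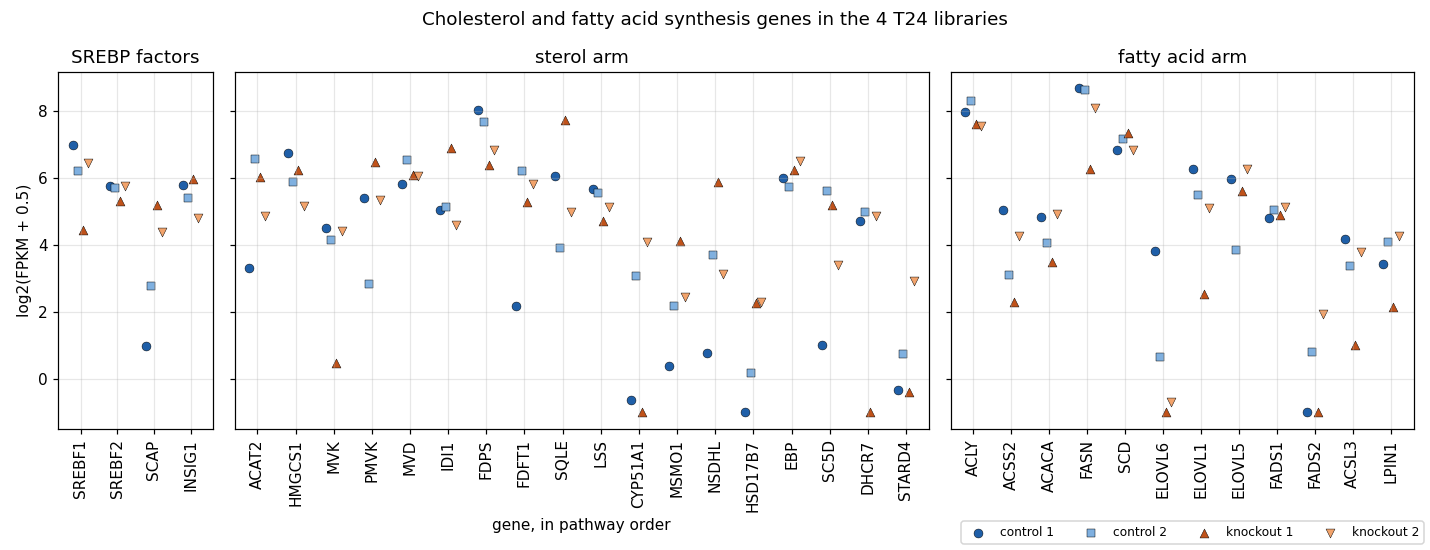
Level of each member (x axis, in pathway order, by arm) in the 4 libraries on a log2(FPKM + 0.5) axis, with controls in blue and knockouts in orange. FASN and ACLY have the highest fatty acid arm levels in both controls, and for most members the points of the groups interleave.

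Among the SREBP factors, SCAP had the widest difference and SREBF2 and INSIG1 the narrowest. SREBF1 (chromosome 17) had 125.6 and 73.5 FPKM in control and 21.4 and 87.3 in knockout libraries. Knockout 1 was the low library and knockout 2 lay between the controls, so the groups overlapped. Its fitted difference was −1.14 ± 0.86 on the log2 scale (SE, n = 2 and 2) and −0.14 without knockout 1. SREBF2 (chromosome 22) had 53.9 and 52.2 against 39.8 and 53.8 FPKM, nearly level in 3 libraries and somewhat lower in knockout 1, a log2 fold change of −0.20 ± 0.95. The ratio of SREBF1 to SREBF2 in FPKM was therefore 2.33 and 1.41 in control and 0.539 and 1.62 in knockout libraries.

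SCAP (ENSG00000114650, chromosome 3 from 47413694 to 47477126, minus strand, hg38) is the escort that carries SREBP precursors to the Golgi. It had 1.47 and 6.33 FPKM in control and 36.4 and 20.6 in knockout libraries, which stand for 14, 52, 130 and 112 reads. Both knockouts exceeded both controls. They were also the shallower libraries, and the part of depth was not tested. The log2 fold change was 2.93 ± 1.83 (adjusted p = 0.955 in limma). It stayed between 2.03 and 3.82 with 1 library left out. INSIG1, the sterol-sensing anchor that retains SCAP and is itself an SREBP target, had 54.9 and 41.9 against 62.2 and 27.6 FPKM, with the lowest and the highest value both among the knockouts and a log2 fold change of −0.21 ± 0.99.

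The sterol arm begins with acetoacetyl-CoA and HMG-CoA formation. ACAT2, the cytosolic thiolase of that step, had 9.45 and 94.97 FPKM in control and 64.7 and 28.7 in knockout libraries, so the gap between the controls enclosed both knockouts. HMGCS1, HMG-CoA synthase, had 106.6 and 59.0 against 75.9 and 35.2 FPKM (log2 fold change −0.61 ± 0.87), again overlapping. Both mevalonate kinase steps and the decarboxylase that follows differed among themselves. MVK was at 22.3, 17.2 and 20.8 FPKM in control 1, control 2 and knockout 2 and at 0.899 in knockout 1, where it had 3 reads. The fitted difference of −1.88 ± 1.81 (log2) became 0.09 without that library. PMVK, phosphomevalonate kinase, had 41.6 and 6.68 FPKM against 89.5 and 40.3 (1.80 ± 1.13), control 2 standing low. MVD, mevalonate diphosphate decarboxylase, had 56.4 and 92.5 against 68.6 and 66.9 FPKM, the knockouts lying between the controls.

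IDI1, the isomerase of isopentenyl diphosphate, had 32.4 and 34.6 FPKM in control and 120.4 and 23.8 in knockout libraries, high in knockout 1 alone. FDPS, farnesyl diphosphate synthase, was the sterol arm member with the highest mean. FDPS (ENSG00000160752, chromosome 1 from 155308748 to 155320666, plus strand, hg38) had 263.2 and 205.9 FPKM in control and 83.1 and 113.5 in knockout libraries, or 1148, 777, 136 and 284 reads. Both knockouts lay well below both controls. The log2 fold change of −1.26 ± 0.64 was larger than the replicate gaps of 0.35 in the controls and 0.45 in the knockouts, and kept between −1.48 and −1.03 with 1 library left out. It did not pass in limma (adjusted p = 0.955).

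The first squalene steps had wide replicate gaps. FDFT1, squalene synthase, had 4.00 and 73.7 FPKM in control and 38.9 and 56.7 in knockout libraries, the controls enclosing the knockouts. SQLE, squalene epoxidase, had 66.2 and 14.6 against 215.1 and 31.3 FPKM. The first of each pair was the higher one in both groups, and the log2 fold change of 1.38 ± 0.95 was 0.00 without knockout 1. LSS, lanosterol synthase, which closes the sterol rings, had 51.2 and 46.8 against 25.7 and 34.8 FPKM. Its knockouts were both lower, with a log2 fold change of −0.70 ± 1.05 that ran from −0.92 to −0.49 with 1 library left out. The ratio of SQLE to LSS in FPKM was 1.29 and 0.313 in control and 8.37 and 0.900 in knockout libraries.

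After lanosterol, the genes of the demethylation steps had low or uneven values. CYP51A1, lanosterol 14-alpha demethylase, had 0.144 and 7.99 FPKM in control libraries and was listed at 0 in knockout 1 and at 16.6 in knockout 2, so the libraries differed within both groups. MSMO1, the C4 methyl oxidase, had 0.815 and 4.00 against 16.8 and 4.97 FPKM, from 4, 17, 31 and 14 reads. Knockout 2 and control 2 were close, and the log2 fold change was 2.00 ± 2.47. NSDHL, the C4 decarboxylase, had 1.20 and 12.5 against 58.1 and 8.36 FPKM, and these groups overlapped (2.28 ± 1.82). HSD17B7, the ketoreductase of the same complex, was listed at 0 and at 0.631 FPKM in the controls and at 4.36 and 4.44 in the knockouts. The knockouts were close to each other and above both controls, with a log2 fold change of 2.70 ± 2.80 that depends on the pseudocount. HSD17B7, FDPS, CYP51A1, SCD and FADS2 have pseudogene copies in GENCODE 29, so their values are uncertain where counting could split reads among the copies.

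The genes of the last steps to cholesterol differed in the sign of their fold changes. EBP, the sterol isomerase, was steady within groups at 64.4 and 52.7 FPKM in control and 74.9 and 91.3 in knockout libraries. Its log2 fold change was small, 0.50 ± 0.84, yet larger than the replicate gaps of 0.29 and 0.28, and it kept between 0.36 and 0.65 with 1 library left out. SC5D, the sterol desaturase, had 1.51 and 48.5 against 36.1 and 10.2 FPKM, the controls enclosing the knockouts. DHCR7, which makes cholesterol from its dehydro precursor, had 25.8 and 31.1 FPKM in the controls, was listed at 0 in knockout 1 and stood at 28.7 in knockout 2. At the depth of knockout 1 a count of 0 allows up to 1.39 FPKM (3 reads, counting error only), and the fitted log2 difference of −2.92 ± 1.80 became 0.02 without it. STARD4, a carrier of cholesterol between membranes, was at 0.301 and 1.16 against 0.267 and 7.18 FPKM, overlapping.

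The fatty acid arm starts with ACLY, which splits citrate into the acetyl-CoA that both arms use. ACLY (ENSG00000131473, chromosome 17 from 41866908 to 41930542, minus strand, hg38) had 249.6 and 314.2 FPKM in control and 195.0 and 186.8 in knockout libraries, or 2342, 2551, 687 and 1005 reads. The knockouts were close together and below both controls. The log2 fold change of −0.55 ± 0.55 exceeded both replicate gaps, 0.33 and 0.06, and lay between −0.72 and −0.39 with 1 library left out (adjusted p = 0.955 in limma). ACSS2, which makes acetyl-CoA from acetate, had 32.9 and 8.20 against 4.42 and 18.9 FPKM, overlapping. ACACA, acetyl-CoA carboxylase, had 28.4 and 16.1 against 10.8 and 29.9 FPKM, with both extremes among the knockouts.

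FASN, fatty acid synthase, was the most abundant member in the controls and in knockout 2. FASN (ENSG00000169710, chromosome 17 from 82078333 to 82098332, minus strand, hg38) had 414.0 and 401.7 FPKM in control and 76.5 and 275.7 in knockout libraries, from 7666, 6437, 532 and 2929 reads. The exact 95% counting intervals were 405 to 423 and 392 to 412 FPKM in the controls, 70.1 to 83.3 in knockout 1 and 266 to 286 in knockout 2. The controls were nearly level while the knockouts lay below them by very different amounts. FASN ranked 89th and 87th among the genes tested in the controls, 984th in knockout 1 and 140th in knockout 2. The log2 fold change of −1.49 ± 0.54 did not pass in limma (adjusted p = 0.803), and was −0.56 without knockout 1 and −2.41 without knockout 2.

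A fit on reads recovered from the FPKM, chosen after seeing the data, gave another call for FASN. FASN entered with its lower level in both knockouts already stated, so this call is not independent evidence. In limma-voom on those reads its log2 fold change was −1.22 ± 0.23 with an adjusted p of 0.000402, and FASN was then the only one of the 34 members past 0.05, against 0.0874% of all genes in that fit. The adjusted p of FASN in limma-voom was 0.00108 without control 1 and 0.000801 without control 2. Without knockout 1 it was 0.201, with a log2 fold change of −0.57, and without knockout 2 it was 0.886, with −2.42. In that fit without control 2, ELOVL6 passed too (log2 fold change −6.74 ± 1.91, adjusted p = 0.0204 in limma-voom). Over all genes, these fits called 322, 421, 47 and 0 without control 1, control 2, knockout 1 and knockout 2, so the last called no gene at all.

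SCD, the stearoyl-CoA desaturase that makes monounsaturated fatty acids, overlapped between the groups. It had 114.0 and 144.8 FPKM in control and 163.3 and 115.0 in knockout libraries, a log2 fold change of 0.09 ± 0.67. The ratio of FASN to SCD in FPKM was 3.63 and 2.77 in control and 0.468 and 2.40 in knockout libraries, both knockouts below both controls. The ratio of FASN to ACLY was 1.66 and 1.28 in the controls against 0.392 and 1.48, where knockout 2 lay between the controls. FASN made up 39.5 and 40.0% of the summed FPKM of the fatty acid arm in the controls, 14.2% in knockout 1 and 34.1% in knockout 2. As FASN was chosen with its lower level known, these ratios and shares describe that level again and are not further evidence.

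**Figure D3:**
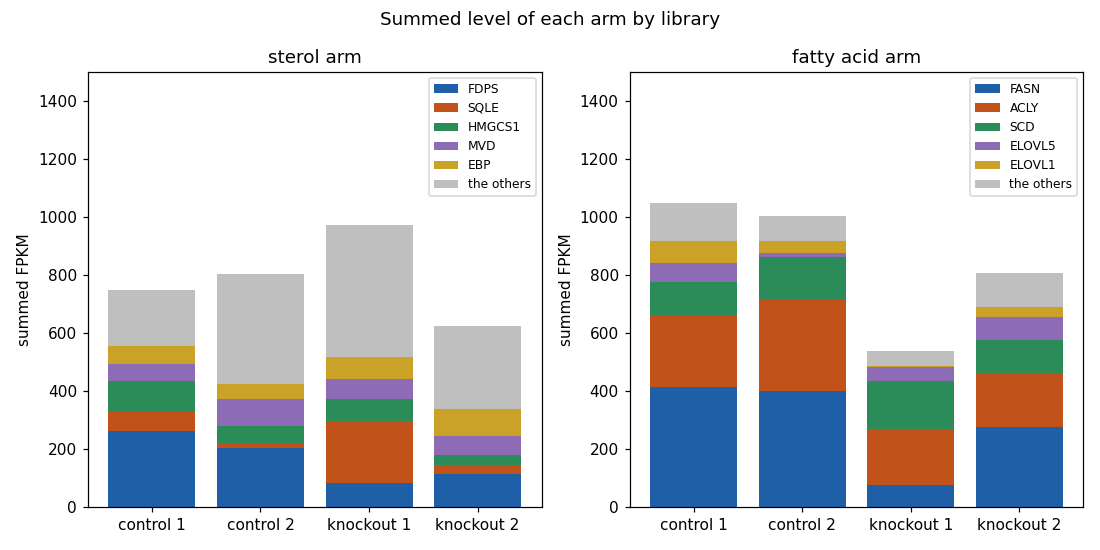
Summed FPKM of the sterol arm and of the fatty acid arm in each library, as bars from 0, with 5 members per arm coloured within each bar and the others in grey. The fatty acid arm sums to 1048 and 1004 FPKM in the controls and to 539 and 808 in the knockouts, and the sterol arm to 747 and 805 against 973 and 624.

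The elongases differed among themselves. ELOVL1, which lengthens saturated very-long-chain fatty acids, had 77.1 and 44.4 FPKM in control and 5.31 and 33.7 in knockout libraries. Both knockouts were lower, knockout 1 with 7 reads, and the log2 fold change of −2.07 ± 1.18 was −0.79 without knockout 1. ELOVL5, the elongase of polyunsaturated fatty acids, had 62.9 and 13.9 against 48.4 and 77.7 FPKM, with control 2 low and the groups overlapping (1.03 ± 1.01).

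ELOVL6 (chromosome 4 from 110045846 to 110199199, minus strand, hg38), which extends palmitate to stearate, was near 0 in both knockouts. Its FPKM was 13.6 and 1.08 in the controls, was listed at 0 in knockout 1 and stood at 0.125 in knockout 2, from 190, 13, 0 and 1 reads. Of the 203 control reads, 190 thus came from control 1 alone. The controls themselves differed by 3.16 on the log2 scale, more than the fitted log2 fold change of −3.08 ± 2.74, which was −1.50 without control 1 and −4.66 without control 2.

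The desaturases FADS1 and FADS2 make polyunsaturated fatty acids, and their annotated spans overlap on opposite strands of chromosome 11. With no strand setting stated, reads in the overlap cannot be assigned to either with certainty. FADS1 was steady at 27.6 and 32.4 FPKM in control and 29.7 and 34.6 in knockout libraries (log2 fold change 0.10 ± 1.14). FADS2 was listed at 0 in control 1 and in knockout 1 and stood at 1.26 and 3.34 FPKM in control 2 and knockout 2. ACSL3, an acyl-CoA synthetase of lipid droplets, had 17.8 and 9.79 against 1.52 and 13.5 FPKM, low in knockout 1 with 7 reads. LPIN1, the phosphatidate phosphatase that leads to diacylglycerol, had 10.2 and 16.4 against 3.90 and 18.8 FPKM, and both genes overlapped between the groups.

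Within the fatty acid arm, 7 of 12 members had their lowest value in knockout 1 alone, against 2 in control 1 and 1 each in control 2 and knockout 2, while FADS2 was at 0 in both control 1 and knockout 1. Over all genes tested, knockout 1 alone held the lowest value in 28.99%, control 1 in 24.1%, control 2 in 8.76% and knockout 2 in 11.0%. Knockout 1 was also the shallowest library. In the sterol arm the counts of lowest values were 7, 3, 6 and 2 in control 1, control 2, knockout 1 and knockout 2. The part of depth in these counts was not tested.

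Replicate gaps were narrower over the members than over all genes tested, which were less abundant. The median level of the members was 29.3 to 36.3 FPKM over the libraries, against 3.57 to 9.80 over all genes tested, and 5 of the 34 were at 0 in some library against 49.4% of all genes. The gap between replicates had a median of 0.81 on the log2 scale over the members in the controls and of 1.30 in the knockouts, against 1.60 and 1.89 over all genes tested. The median absolute log2 fold change was 1.01 over the members and 1.38 over all genes. In 7 members (SCAP, FDPS, LSS, MSMO1, HSD17B7, EBP and ACLY, 20.6%) the difference between group means exceeded both replicate gaps, against 15.4% of all genes. The sign of the fitted fold change was kept with each library left out in turn in 15 of the 34 (44.1%), against 43.2% of all genes. Of the 32 members whose reads could be recovered as whole numbers, 24 had separate exact 95% counting intervals in the controls and 26 in the knockouts, so replicates differed by more than counting error in most members.

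**Figure D4:**
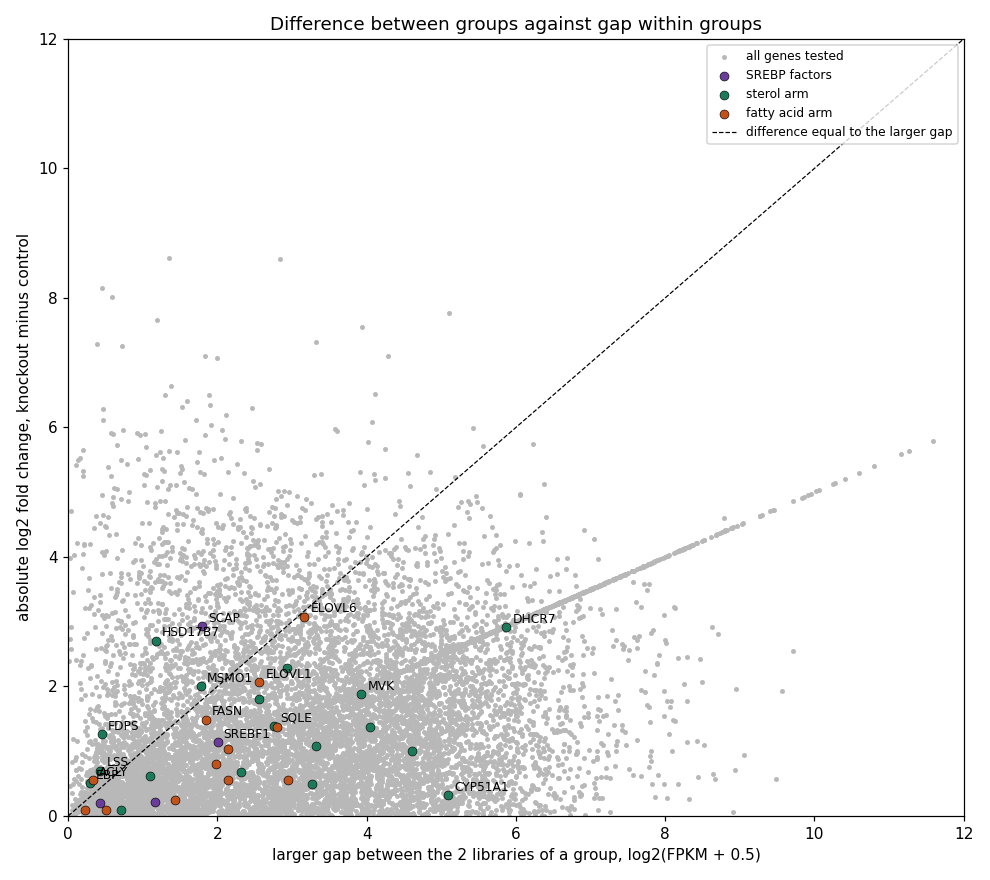
Absolute log2 difference between group means of each member against the larger of its replicate gaps, both on the log2(FPKM + 0.5) scale, coloured by arm, with all genes tested as grey points and a dashed line of equality. Of the members, 7 lie above the line, SCAP, FDPS, LSS, MSMO1, HSD17B7, EBP and ACLY, while FASN lies below it, its knockouts being 1.84 apart.

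FASN, ACLY, ACACA and SREBF1 all lie on chromosome 17, and the median log2 fold change of these 4 was −0.85. The median of the 768 genes tested on that chromosome was −0.04, and 15.0% of them had both knockouts below both controls.

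Other genes of these pathways came from 5 lists of 58 genes, of which 41 were tested and 10 were listed at 0 in all libraries. Both knockouts lay below both controls in 5 of the 41 and above in 8, against 14.4% and 12.1% of all genes tested. Of the 41, 21 were higher and 20 lower in the knockout, the median log2 fold change was 0.02, and none passed an adjusted p of 0.05 in limma in either direction. An unadjusted p under 0.05 in limma was found in 3 of them (LIPA, STARD3 and NR1H2), against 3.91% of all genes tested. LIPA was listed at 0 in control 1 and NR1H2 in knockout 1, so their fitted values depend on the pseudocount. Of the 41, limma-voom on recovered reads called 0, against 0.0874% of all genes. Other SREBP regulators had 3 of 7 tested genes higher and a median of −0.38. Among these NR1H2, a liver X receptor, had FPKM of 84.1 and 20.9 against 0 and 24.4 (log2 fold change −3.59 ± 1.69), and RNF139, a ubiquitin ligase of the endoplasmic reticulum, had 0 and 4.66 against 16.8 and 11.6 (3.17 ± 2.48). Both knockouts of RNF139 were above both controls, while NR1H2 overlapped. Further genes whose groups did not overlap are named in these lists, chosen after their values were seen. In this list MBTPS1, the site-1 protease that cleaves SREBP, had 7.25 and 11.3 against 43.4 and 20.4 FPKM.

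Other sterol enzymes and sterol traffic genes had 5 of 9 tested genes higher and a median of 0.55. LIPA, the lysosomal lipase that frees cholesterol from its esters, had 0 and 15.6 FPKM in control and 78.4 and 18.8 in knockout libraries (3.78 ± 1.80). STARD3, a late endosomal cholesterol carrier, had 1.61 and 5.27 against 77.5 and 22.7 (3.61 ± 1.69). Both knockouts exceeded both controls in each, and likewise in GGPS1, geranylgeranyl diphosphate synthase (5.59 and 11.8 against 34.5 and 14.5 FPKM).

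Other fatty acid genes had 6 of 14 higher, 8 lower and a median of −0.21. The largest fitted differences were those of HACD2 (0 and 6.53 against 15.6 and 10.2 FPKM, 2.81 ± 2.45) and MCAT (0 and 6.50 against 16.8 and 5.49 FPKM, 2.44 ± 2.56), of which HACD2 had both knockouts above both controls. HACD3 and TECR, enzymes of very-long-chain elongation, had both knockouts below both controls. HACD3 stood at 31.8 and 40.9 against 8.40 and 19.2 FPKM (−1.46 ± 1.32), and TECR at 12.4 and 8.48 against 1.70 and 5.01 FPKM (−1.63 ± 2.27).

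Citrate and NADPH supply had 4 of 7 genes higher and a median of 0.99, and glycerolipid synthesis 3 of 4 tested genes higher and a median of 0.68. ACO1 had FPKM of 2.17 and 1.00 against 16.5 and 4.10 (log2 fold change 2.14 ± 2.59), and ME1, the cytosolic malic enzyme, had 0 and 0.951 against 8.40 and 0.718 (1.95 ± 2.75). SLC25A1, the mitochondrial citrate carrier, had 49.7 and 84.0 against 9.72 and 47.5 FPKM (−1.56 ± 1.06). AGPAT2, an acyltransferase of phosphatidic acid synthesis, had 34.3 and 34.6 in control against 22.0 and 0.533 in knockout libraries (−2.86 ± 1.65). LPIN2, a relative of LPIN1, had 1.48 and 0.343 against 3.56 and 5.95 (1.98 ± 2.83). The knockouts of ACO1 and LPIN2 were both above their controls and those of SLC25A1 and AGPAT2 both below.

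The simple epithelial markers KRT8 (266 and 397 against 1138 and 816 FPKM) and KRT18 (173 and 173 against 303 and 314) were present, while EPCAM, CDH1 and KRT19 and the urothelial markers UPK1A, UPK1B, UPK2, UPK3A and TP63 were listed at 0 in all libraries. KRT7 had 0 and 4.27 against 56.9 and 33.1 FPKM. All 3 keratins had both knockouts above both controls, against 12.1% of all genes tested. KRT7 and KRT8 had an unadjusted p under 0.05 in limma, against 3.91% of all genes tested. None of the 3 passed in limma (adjusted p = 0.0896 for KRT8). KRT8 passed in limma-voom (log2 fold change 1.51 ± 0.21, adjusted p = 1.32e-09), as did 0.0874% of all genes. Its adjusted p in limma-voom was 0.00792, 0.000710 and 0.000742 without control 1, control 2 or knockout 1, and 0.886 without knockout 2. Of the other urothelial markers, PPARG had 6.85 FPKM in control 2 and 46.1 in knockout 1, UPK3B had 6.80 in knockout 2 and GATA3 0.150 in control 1, so the 8 markers summed to 0.150 and 6.85 FPKM against 46.1 and 6.80. The summed FPKM of the 6 simple epithelial markers was 575 at most in the controls and 1163 at least in the knockouts, and that of the 4 mesenchymal markers was 183 to 186 against 325 to 384. VIM made up most of the mesenchymal sum (177 and 172 against 267 and 372 FPKM). ZEB1 had 0 and 0.938 against 33.8 and 2.19 FPKM, while CDH2 and FN1 overlapped between the groups. The part of these differences in the values of the lipid genes was not tested. The 5 adipocyte and 5 leukocyte markers were listed at 0 throughout. The hepatocyte markers, of which APOA1, APOB and TTR were at 0, summed to 11.0 and 13.7 FPKM against 2.72 and 1.37, and the endothelial markers to 2.72 in control 2 alone.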

How the data were processed

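PolyA RNA-seq of T24 was analysed in 2 control and 2 IGF2BP3 knockout libraries, grouped by the genotype label. The authors deposited FPKM per Ensembl gene for each library, counted with HTSeq per the file names, with the build hg38 per the submitters' processing notes. For the aligner, annotation release, strand and duplicates, the setting is not given in the sources used here. Multiplied by the longest GENCODE 29 transcript (58039 genes matched), 96.4 to 96.5% of values above 0 were whole reads (tolerance 0.001), which gave the depths. Intervals cover counting error only, as amplified copies of a molecule are read more than once, and genes whose shorter transcripts dominate are understated.

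Genes whose mean FPKM reached 1 were tested with limma 3.58.1 in R 4.3.3 (lmFit, eBayes with trend, two-sided, Benjamini-Hochberg over all genes tested, threshold 0.05) on log2(FPKM + 0.5), a scale that understates changes of low genes. The fit was run on simulated reads with known fold changes and the same small dispersion for every gene. The simulation was not matched to the replicate gaps of these libraries, so it does not show how the fit performs on them. A replicate gap is the absolute log2 difference between libraries of a group. Values per library are given for the SREBP factors, FASN, members whose groups do not overlap, the 3 largest fold changes and the 2 highest means of each arm, and others where a pathway step needs them. In the other pathway lists, the 2 largest fold changes are named, and 1 gene counted there is not reported here. Members and lists were chosen with earlier results of these data known. Alternatives covered pseudocount, filter, scaling, moderation, a replicate block, protein-coding genes, arm makeup, each library left out and limma-voom on the recovered reads, which was chosen after seeing the data. Tables and figures were made with Python 3.11.15, pandas 2.3.3, scipy 1.17.1 and matplotlib 3.10.9.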

Additional observations from a re-analysis of the deposited data

How the results depend on the processing

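No member passed an adjusted p of 0.05 in limma under any setting on the FPKM values, with other pseudocounts, filters, scalings, moderation, gene sets or a library left out. In limma-voom on recovered reads, chosen after seeing the data, 1 member passed, FASN, and 1 to 2 did without 1 of the controls (1 without control 1, 2 without control 2) against 0 without either knockout. The numbers 1 and 2 in the labels are all that libraries of different groups share, and deviations of same-numbered libraries had a correlation of −0.004 over 11463 genes. With the replicate block 0 members passed, and the medians stayed at 0.59 for the sterol arm and −0.55 for the fatty acid arm. Quantile normalization gave medians of 0.41 and −0.20. Members with an unadjusted p under 0.05 in limma numbered 2 in the main setting and 0 without the trend. They numbered 1 with a pseudocount of 1, with no filter or with the replicate block. Over all genes, 10 passed in the main setting, 14 with the block, 2 among protein-coding genes only, 0 without the trend and 0 with any library left out (unadjusted p under 0.05 in 415 without the trend and in 752 to 1025 with a library left out).

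With 1 library left out, the sterol arm median lay between −0.32 and 0.72 and the fatty acid members higher in the knockout numbered 2 to 7. The log2 fold changes that turned sign in such a fit ranged from −0.41 to 0.02 for SREBF2, −0.79 to 0.37 for INSIG1, −0.65 to 3.40 for FDFT1, −0.48 to 1.83 for IDI1, −0.45 to 0.26 for MVD, −3.84 to 0.09 for MVK and −2.23 to 2.87 for CYP51A1. They ranged from −1.31 to 3.30 for SC5D, −5.85 to 0.02 for DHCR7, −1.13 to 2.13 for ACAT2, −0.59 to 2.73 for STARD4, −0.96 to 0.47 for ACACA, −1.79 to 0.19 for ACSS2 and −0.16 to 0.34 for SCD. The rest were −0.04 to 2.10 for ELOVL5, −0.01 to 0.21 for FADS1, −0.91 to 2.03 for FADS2, −2.76 to 0.03 for ACSL3 and −1.62 to 0.52 for LPIN1. CYP51A1 also turned to −0.12 with a pseudocount of 0.1. Leaving out a library leaves a group of 1, assumed to vary like the other, and the causes were not tested. Depth limits the low members: at 0 reads, 3 reads remain possible.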
